A study of Mus musculus with 9 samples.

Results

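The genes examined here encode respiratory complex I, the enzyme of the inner mitochondrial membrane that oxidises NADH, together with the factors that assemble it. Members were all genes of the deposited annotation whose symbol begins with Nduf, without those marked as pseudogenes by a name ending in -ps, which left out 2 names. The rule gave 49 of 55421 genes, of which 46 are protein coding and 3 are processed pseudogenes in GENCODE M21. The members lie on 17 chromosomes, with 2 of them, Ndufa1 and Ndufb11, on X. By role they were sorted into 8 subunits of the NADH-oxidising N module, 8 of the ubiquinone-reducing Q module, 9 of the proximal and 10 of the distal membrane arm among the genes expressed here, 1 acyl carrier protein, 8 assembly factors, and Ndufa4 with its relative Ndufa4l2.

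The libraries came from CD8+ T cells of spleens of Pmel Ly5.1 mice, a cross of Jackson Laboratory lines with a transgenic T-cell receptor. In the MitoPositive and MitoNegative groups these cells had spent 36 h with DM5 cells and had then been sorted by flow cytometry as DsRed-positive or DsRed-negative cells. DM5 is a stromal line of bone marrow origin from BL6 mice, made immortal in culture, and it had been given red-fluorescing mitochondria by DsRed. The monoculture group held T cells kept without stromal cells. Each group had 3 libraries, lettered B, C and D, and the titles carry a time of 0 h that the labels do not explain. Animal age was not given in the sources used here, nor whether each letter is its own animal or culture. The p-values therefore refer to the spread among these libraries, which may be technical. The comparison of DsRed-positive with DsRed-negative cells asks how T cells that hold stromal mitochondria differ from T cells of the same culture that do not, and each is also set against T cells alone.

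Complex I takes electrons from NADH in its matrix arm, passes them along iron-sulfur clusters to ubiquinone, and uses the energy to pump protons through its membrane arm. Most of its subunits are encoded in the nucleus and imported, while the core subunits of the membrane arm are encoded by the mt-Nd genes of mitochondrial DNA, so both genomes contribute to 1 enzyme. In activated T cells complex I regenerates the NAD+ that the citric acid cycle needs. Assembly factors bind modules of the growing enzyme and are absent from the finished complex.

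The promoter letters are shown for 6 members. Against monoculture, Ndufa4, Ndufa3 and Ndufb10 passed the test as lower and Ndufab1 as higher in both co-cultured groups. Ndufaf3 and Ndufaf4 passed as higher in MitoPositive only. The stretches are GRCm38.p6 sequence from RefSeq's promoter windows, 5′ to 3′ on the strand of the gene, each ending where the first exon annotated in GENCODE M21 or RefSeq near that start begins. They lie at chr6:11907498-11907647 on the minus strand for Ndufa4, chr7:3617223-3617372 on the plus strand for Ndufa3, chr17:24724479-24724628 on the minus strand for Ndufb10, chr7:122101887-122102036 on the minus strand for Ndufab1, chr9:108567437-108567532 on the minus strand for Ndufaf3 and chr4:24897933-24898082 on the plus strand for Ndufaf4. Capitals mark a match to the motif of NRF1 (GCGCA, any base, then GCGC) in Ndufaf4 and to the motif of YY1 (GCCATNTT) in Ndufb10 and Ndufaf3, and the other 3 stretches hold no match to either.
Ndufa4: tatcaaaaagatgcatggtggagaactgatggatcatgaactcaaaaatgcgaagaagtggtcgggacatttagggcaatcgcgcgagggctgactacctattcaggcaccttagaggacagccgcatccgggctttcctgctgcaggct
Ndufa3: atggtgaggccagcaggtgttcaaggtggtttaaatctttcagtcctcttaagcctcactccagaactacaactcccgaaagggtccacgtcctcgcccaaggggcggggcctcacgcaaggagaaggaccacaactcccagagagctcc
Ndufb10: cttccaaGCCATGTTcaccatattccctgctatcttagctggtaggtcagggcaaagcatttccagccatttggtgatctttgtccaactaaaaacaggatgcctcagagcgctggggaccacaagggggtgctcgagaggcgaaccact
Ndufab1: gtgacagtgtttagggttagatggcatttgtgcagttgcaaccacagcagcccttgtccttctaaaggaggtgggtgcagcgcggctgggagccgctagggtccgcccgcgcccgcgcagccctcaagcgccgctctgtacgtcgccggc
Ndufaf3: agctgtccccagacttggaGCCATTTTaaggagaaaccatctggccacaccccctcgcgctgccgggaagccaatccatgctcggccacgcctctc
Ndufaf4: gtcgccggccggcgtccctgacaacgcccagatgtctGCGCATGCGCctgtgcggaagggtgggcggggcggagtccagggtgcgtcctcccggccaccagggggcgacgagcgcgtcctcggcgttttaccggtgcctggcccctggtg

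NRF1 and YY1 are transcription factors known for binding promoters of respiratory chain genes, and GABP binds the ETS motif (ACTTCCGG). RefSeq's table listed a promoter, from 250 bases before to 50 bases after the start, for 40 of the 49 members. It held none for 9 members, among them Ndufa11b, Ndufa2, Ndufa4l2, Ndufaf6, Ndufb4c, Ndufb9, Ndufs1 and Ndufs6b. On either strand, YY1 letters were found in 14 of the 40 (35%), against 6.96% of 27025 genes with a listed promoter. NRF1 letters were found in 9 (22.5%), against 5.19% of all genes, and ETS letters in 1, Ndufs3 (2.5%), against 4.31%. Among the 10419 of 15711 tested genes that had a listed promoter the shares were 10% for YY1, 11.5% for NRF1 and 9.24% for ETS, and they describe only those listed genes. In 8 members the letters AAGATGGC, the YY1 motif on the opposite strand, stood between 10 and 45 bases after the start base. These were Ndufa3, Ndufa9, Ndufaf8, Ndufb8, Ndufc1, Ndufs4, Ndufs6 and Ndufs7. How often these letters stand there in other genes was not counted, so the place cannot be called particular to the members. Only Ndufs6 held both a YY1 and an NRF1 match. A match describes letters and not binding.

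Total counts per library ranged from 53546152 to 74722832, and 15711 genes passed the filter on low counts. The 8 CD8+ T-cell markers summed to between 6520 and 8020 CPM (counts scaled to a common library size) in each library, and 6 of the 8 in MitoNegative and 5 in MitoPositive were lower than in monoculture. Stromal markers summed to 0.901 to 1.31 CPM in monoculture, where Col1a2, Col3a1, Sparc, Dcn and Lum were at 0, to 12.1 to 33.5 CPM in MitoNegative and to 12.3 to 32 CPM in MitoPositive. Of the 10 stromal markers tested, 9 were higher in each co-cultured group than in monoculture and 0 differed between the sorted groups by edgeR's adjusted p. B-cell markers summed to 656 to 730 CPM in monoculture, 359 to 449 in MitoNegative and 273 to 300 in MitoPositive. Of the 5, 4 were lower in each co-cultured group than in monoculture, and 1 was lower in MitoPositive than in MitoNegative. Natural killer markers summed to 1.34 to 4.05 CPM over all libraries, with 2 of 2 tested lower in MitoPositive than in monoculture. Myeloid markers summed to 3.98 to 8.42 CPM, with 2 of 6 higher and 2 lower in that comparison. The part of these cells in the differences below was not tested, and in bulk RNA fewer cells of a type cannot be told apart from less RNA per cell. The library monoculture D stood apart for the members: 43 of the 45 tested were above their group's mean in it, with a median deviation of 0.12 (log2), against 0.02 over all genes. MitoPositive C was also high, with 41 of 45 above the group mean (median deviation 0.07), and MitoNegative D and MitoPositive D were low, with 6 and 7 of 45 above it. The counts and medians against monoculture are given with and without monoculture D.

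Counts of the members in these T cells spanned a wide range. Per length (RPKM, the CPM value divided by the exon length in kilobases), the median of the 45 tested members was 24.1 in monoculture, 24.2 in MitoNegative and 25.4 in MitoPositive. By the exon length of the deposited annotation, the highest in monoculture was Ndufa1, a small single-pass membrane subunit, at 116 RPKM, followed by Ndufa2 of the N module at 103.9 RPKM, and the lowest was Ndufb2 at 0.613 RPKM. The proximal membrane arm had the highest median (69.6 RPKM in monoculture), then the Q module (37.3), the N module (28.7), the distal membrane arm (19.9) and the assembly factors (6.87). Among the assembly factors Ndufaf1 was highest at 17.6 RPKM and Ndufaf2 lowest at 3.55 RPKM. The acyl carrier protein Ndufab1 stood at 4.65 RPKM over an exon length of 6883 bases, and at 9.19 RPKM over its longest coding transcript of 3479 bases. With the longest coding transcript as the length of every member, the median in monoculture was 52.9 RPKM and these orders changed. The module medians were then 71.8 RPKM for the Q module, 69.6 for the proximal arm, 64.5 for the distal arm, 45.9 for the N module and 10.5 for the assembly factors. Ndufb10 (156.4 RPKM), Ndufa6 (154.7) and Ndufa3 (149.5) were then above Ndufa1 (116.2), Ndufaf2 stood at 15.6 RPKM, and Ndufaf6 was the lowest assembly factor at 4.32 RPKM. Ndufb2 was the lowest member and Ndufaf1 the highest assembly factor by both lengths.

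**Figure D1:**
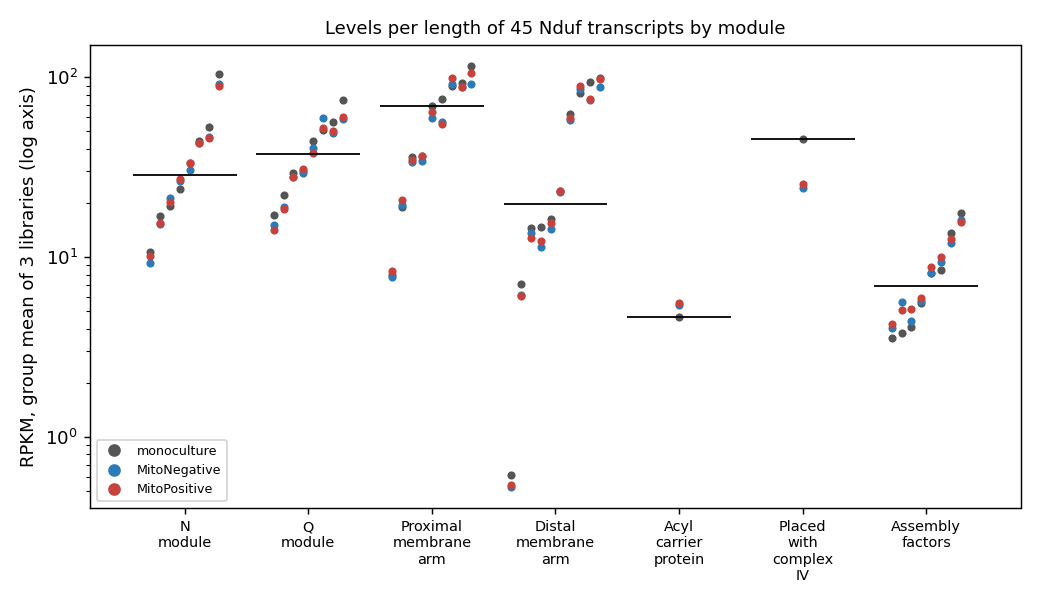
Mean RPKM of 3 libraries in each group (points, log axis) for the 45 tested members, sorted by module, with a line at each module's median in monoculture. Assembly factors lie between 3.55 and 17.6 RPKM in monoculture, and Ndufb2 lies far below the other subunits of the distal membrane arm.

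Ndufa4 showed the largest change of any member in both co-cultured groups. Its protein was first assigned to complex I and is now placed with complex IV, the oxidase at the end of the respiratory chain. Ndufa4 stood at 57.9, 61.5 and 68.1 CPM in monoculture B, C and D, at 33.4, 32.9 and 33.9 CPM in MitoNegative and at 31.8, 37.8 and 35.5 CPM in MitoPositive. All 6 co-culture libraries lay below all 3 monoculture libraries, while the sorted groups overlapped. The transcript was 1.87-fold lower in MitoNegative than in monoculture (log2 fold change -0.90, SE 0.0755, adjusted p = 5.46e-06, edgeR). In MitoPositive it was 1.78-fold lower (log2 fold change -0.83, SE 0.0755, adjusted p = 6.12e-06). Under the 17 alternative settings the log2 fold change stayed between -0.96 and -0.83 in MitoNegative and between -0.89 and -0.76 in MitoPositive, and the call held in each.

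Against monoculture most members did not pass the test, and the subunits that passed were mostly lower, while the Nduf assembly factors that passed were higher. In MitoNegative 3 of the 45 tested members rose and 11 fell (31.1%), while 38.9% of all tested genes passed, 20.6% higher and 18.3% lower. In MitoPositive 5 rose and 6 fell (24.4%), while 42.2% of all genes passed, 22.3% higher and 19.9% lower. The share of members that passed was thus below that of all genes in both comparisons, which share the 3 monoculture libraries. These shares of all genes are also the background for the counts by module and list below. The median log2 fold change of the members was -0.11 in MitoNegative, against 0.01 over all genes, and -0.06 in MitoPositive, against 0.00. Without monoculture D the medians were -0.04 and 0.01, with 5 members higher and 7 lower in MitoNegative (background 20.9% and 16.6%) and 10 higher and 6 lower in MitoPositive (background 23% and 18.7%). Without MitoNegative C, 1 rose and 7 fell in MitoNegative (background 17.2% and 13.5%), and without monoculture B, 1 rose there (background 17.3%). Without MitoPositive C, 2 members rose in MitoPositive (background 18.4%). In the same comparison 3 rose without monoculture B (background 18.7%), monoculture C (19.6%) or MitoPositive B (19.2%), and 8 rose with scaling by total counts (24.5%). With the replicate letter as a block the same 14 and 11 members passed, beside 44.9% and 47.8% of all genes. The members summed to 2311, 2339 and 2652 CPM in monoculture, to 2284, 2259 and 2126 CPM in MitoNegative and to 2245, 2365 and 2206 CPM in MitoPositive. Monoculture D was the highest of the 9 sums. Every MitoNegative sum lay below every monoculture sum, while the MitoPositive sums overlapped both groups. The sums were given no test.

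**Figure D2:**
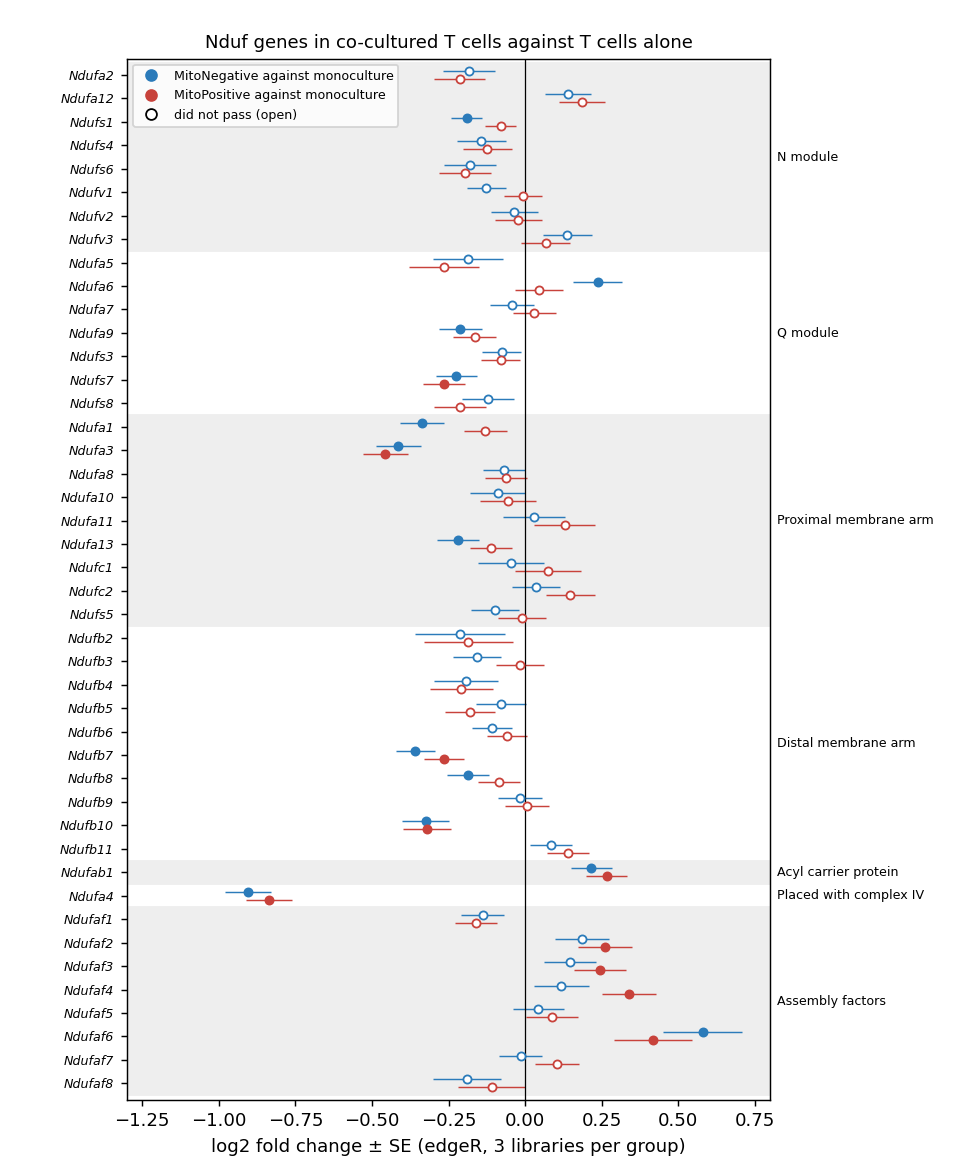
Log2 fold change against monoculture with its SE (x axis) for 44 of the 45 tested members by module (y axis), in MitoNegative (blue) and MitoPositive (red), with filled points for members that passed the test. Ndufa4 lies furthest left, at -0.90 and -0.83, and Ndufaf6 furthest right, at 0.58 and 0.42.

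In the N module, which holds the flavin and the first iron-sulfur clusters, 1 of 8 subunits fell in MitoNegative and 0 passed in MitoPositive. Ndufs1, the largest subunit of the enzyme and a carrier of several iron-sulfur clusters, was at 88.1, 83.1 and 87.3 CPM in monoculture, 76.2, 76.5 and 73.7 CPM in MitoNegative, and 81.7, 83.6 and 79.4 CPM in MitoPositive. Every MitoNegative library lay below every monoculture and MitoPositive library. It was 1.14-fold lower in MitoNegative (log2 fold change -0.19, SE 0.0509, adjusted p = 0.0108, edgeR), and its value in MitoPositive was -0.08 (SE 0.0508, adjusted p = 0.238). The call was lost in the fit of MitoNegative and monoculture alone with the replicate letter as a block (adjusted p = 0.061). Ndufv1, which binds the flavin and meets NADH, was at 84.3, 83.3 and 96.2 CPM in monoculture, 79.96, 82.4 and 79.4 CPM in MitoNegative, and 86.3, 90.1 and 86.3 CPM in MitoPositive. Its monoculture range covered the MitoPositive libraries and lay above the MitoNegative ones, but neither difference passed (log2 fold changes -0.13 and -0.01, adjusted p = 0.135 and 0.943). The other subunits of the module lay between -0.18 (Ndufa2 and Ndufs6) and 0.14 (Ndufa12 and Ndufv3) in MitoNegative and between -0.21 (Ndufa2) and 0.18 (Ndufa12) in MitoPositive.

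In the Q module, where electrons reach ubiquinone, 3 of 8 subunits fell and 1 rose in MitoNegative, and 2 fell in MitoPositive. Ndufs7, a core subunit at the ubiquinone site, carries the last iron-sulfur cluster before it. It was at 36.5, 37.0 and 40.8 CPM in monoculture, 31.9, 32.9 and 33.0 CPM in MitoNegative, and 29.8, 34.2 and 31.1 CPM in MitoPositive. No co-culture library reached the lowest monoculture library, and the log2 fold change was -0.22 (SE 0.0673, adjusted p = 0.0203, edgeR) in MitoNegative and -0.27 (SE 0.0674, adjusted p = 0.00757) in MitoPositive. The call in MitoNegative was lost without monoculture D (adjusted p = 0.0738), MitoNegative B (0.0816) or MitoNegative C (0.0562).

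Ndufa9, an accessory subunit that binds NADPH, was at 119.2, 111.6 and 126.9 CPM in monoculture, 109.3, 105.2 and 94.2 CPM in MitoNegative, and 110.8, 106.6 and 101.7 CPM in MitoPositive. The monoculture libraries were the highest, and the transcript was 1.16-fold lower in MitoNegative (log2 fold change -0.21, SE 0.0703, adjusted p = 0.0318, edgeR), with -0.16 in MitoPositive (adjusted p = 0.0804). The call was lost without monoculture B (adjusted p = 0.0673), monoculture D (0.112), MitoNegative C (0.073) or MitoNegative D (0.12), and in fits of these 2 groups alone with and without the replicate letter as a block (0.0755 and 0.0593). Ndufa6, which anchors an acyl carrier protein to the matrix arm, was the only subunit of the module that rose. It was at 88.9, 82.8 and 102.2 CPM in monoculture, 114, 109.7 and 99.1 CPM in MitoNegative, and 92.0, 97.2 and 93.3 CPM in MitoPositive. Monoculture D lay above MitoNegative D, so the groups overlapped although the rise of 1.18-fold passed (log2 fold change 0.24, SE 0.0796, adjusted p = 0.0339). That call was lost without monoculture B (adjusted p = 0.097), monoculture C (0.131), MitoNegative B (0.099) or MitoNegative C (0.0827), and in fits of these 2 groups alone with and without the block (0.0617 and 0.0551). In MitoPositive the value was 0.05 (adjusted p = 0.684).

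In the proximal membrane arm, next to the ubiquinone site, 3 of 9 subunits fell in MitoNegative and 1 in MitoPositive. Ndufa3, a small membrane subunit, was at 77.7, 71.9 and 81.4 CPM in monoculture, 59.4, 61.2 and 52.8 CPM in MitoNegative, and 57.0, 59.0 and 52.3 CPM in MitoPositive. The gap between the lowest monoculture and the highest co-culture library was wider than the spread within any group, and Ndufa3 fell 1.33-fold in MitoNegative (log2 fold change -0.41, SE 0.0733, adjusted p = 0.000977, edgeR) and 1.37-fold in MitoPositive (log2 fold change -0.46, SE 0.0734, adjusted p = 0.00041). Ndufa1, needed for assembly of the membrane arm, was at 46, 46.7 and 53.4 CPM in monoculture, 39.4, 38.9 and 37.4 CPM in MitoNegative, and 45.8, 46.5 and 41.2 CPM in MitoPositive. The MitoNegative libraries lay below all the others, and Ndufa1 was 1.26-fold lower there (log2 fold change -0.34, SE 0.0708, adjusted p = 0.00286), with -0.13 in MitoPositive (adjusted p = 0.162). Ndufa13, also known as GRIM-19, was at 81.8, 89.5 and 89.8 CPM in monoculture, 76.6, 74.9 and 72.6 CPM in MitoNegative, and 86.5, 82.3 and 73.2 CPM in MitoPositive. MitoNegative lay below monoculture, and MitoPositive overlapped both. The log2 fold change was -0.22 in MitoNegative (SE 0.0684, adjusted p = 0.0237) and -0.11 in MitoPositive (adjusted p = 0.221). The Ndufa13 call was lost without monoculture C (adjusted p = 0.07), monoculture D (0.0677), MitoNegative B (0.0503), MitoNegative C (0.0772) or MitoNegative D (0.0725). On 30% of its exon bases Ndufa13 overlaps Tssk6 on the opposite strand, which had 136 counts over the 9 libraries, against 47292 for Ndufa13. The other 6 subunits of this arm did not pass in either comparison, with values from -0.10 (Ndufs5) to 0.04 (Ndufc2) in MitoNegative and from -0.06 (Ndufa8) to 0.15 (Ndufc2) in MitoPositive.

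In the distal membrane arm 3 of 10 subunits fell in MitoNegative and 2 in MitoPositive. Ndufb7 and Ndufb10 are paired-cysteine (CHCH) proteins on the side of the arm that faces the intermembrane space. Ndufb7 was at 63.3, 65.4 and 70.4 CPM in monoculture, 52.8, 51.6 and 50.9 CPM in MitoNegative, and 53.7, 60.0 and 52.2 CPM in MitoPositive. It fell 1.28-fold in MitoNegative (log2 fold change -0.36, SE 0.0648, adjusted p = 0.00111, edgeR) and 1.2-fold in MitoPositive (log2 fold change -0.26, SE 0.0647, adjusted p = 0.00625). Ndufb10 was at 105.7, 109.6 and 128.4 CPM in monoculture, 92.4, 94.5 and 87.4 CPM in MitoNegative, and 87.5, 97.9 and 90.0 CPM in MitoPositive. Its log2 fold change was -0.32 in MitoNegative (SE 0.077, adjusted p = 0.00581) and -0.32 in MitoPositive (SE 0.077, adjusted p = 0.00562), a fall in both. For both genes the 6 co-culture libraries lay below the 3 monoculture libraries, and monoculture D was the highest of all. Ndufb8, with 49.3, 51.2 and 54.1 CPM in monoculture and 47.8, 44.3 and 43.9 CPM in MitoNegative, was the smallest of the 11 falls in MitoNegative and so outside the rule for naming, and was chosen after its value was seen. Its log2 fold change was -0.19 (SE 0.0679, adjusted p = 0.0482) and the call was lost in 12 of 17 alternative settings. The leave-one-out fits that lost it left out monoculture C (adjusted p = 0.0835), monoculture D (0.149), MitoNegative B (0.0545), MitoNegative C (0.167), MitoNegative D (0.131), MitoPositive B (0.0567) or MitoPositive C (0.0586). Among the 7 other subunits of this arm the values ran from -0.21 (Ndufb2) to 0.08 (Ndufb11) in MitoNegative, and none of them passed in either comparison. Ndufb6, Ndufb11 and Ndufb5 overlap genes on the opposite strand, Smim27 on 39%, Rbm10 on 12.9% and Mrpl47 on 12.3% of their exon bases. Rbm10 held 46166 counts over the 9 libraries, against 45935 for Ndufb11. Reads of such overlaps cannot be told apart where counting did not use strand.

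**Figure D3:**
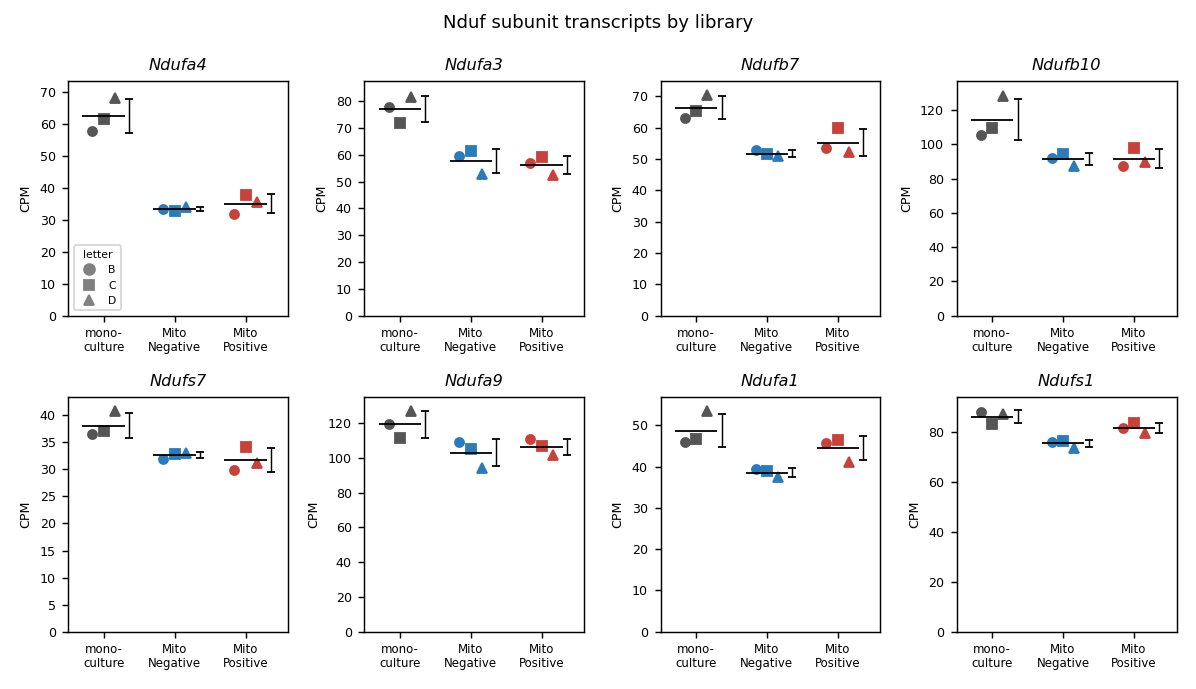
CPM in each library (symbols for letters B, C and D) of 8 subunit transcripts in monoculture, MitoNegative and MitoPositive, with the group mean (line) and SD (bar). For Ndufa4, Ndufa3, Ndufb7, Ndufb10, Ndufs7 and Ndufa9 all 6 co-culture libraries lie below the monoculture libraries, and for Ndufa1 and Ndufs1 the MitoNegative libraries lie below all others.

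The acyl carrier protein Ndufab1, a subunit of the enzyme that also serves mitochondrial fatty acid synthesis and iron-sulfur cluster assembly, moved the other way. It was at 29.6, 34.5 and 31.9 CPM in monoculture, 36.5, 39.0 and 35.9 CPM in MitoNegative, and 36.9, 40.1 and 38.4 CPM in MitoPositive. Each co-culture library was above the highest monoculture library. Ndufab1 rose 1.16-fold in MitoNegative (log2 fold change 0.22, SE 0.0676, adjusted p = 0.0246, edgeR) and 1.2-fold in MitoPositive (log2 fold change 0.27, SE 0.0676, adjusted p = 0.00767). The call in MitoNegative was lost without monoculture B (adjusted p = 0.0939) or MitoNegative C (0.0891). Its processed copies Gm4459 and Ndufab1-ps match it at 99.8% and 99.4% and held 76 and 36 counts over the 9 libraries, against 21107 for Ndufab1.

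Of the 8 assembly factors, 4 rose in MitoPositive (50%) and 1 rose in MitoNegative (12.5%), and none fell. Of all tested genes 22.3% rose and 19.9% fell in MitoPositive, and 20.6% rose and 18.3% fell in MitoNegative. Their median log2 fold change was 0.17 in MitoPositive and 0.08 in MitoNegative, while that of the 37 other tested members was -0.08 and -0.13. Without monoculture D these medians were 0.23 and 0.09 for the assembly factors and -0.04 and -0.05 for the other members. The 4 rises in MitoPositive became 2 without monoculture B (background 18.7%), monoculture C (19.6%) or MitoPositive B (19.2%). Without MitoPositive C they became 1 (18.4%). Ndufaf6, which acts early around the first membrane subunit, had the largest rise. It was at 4.18, 4.71 and 5.15 CPM in monoculture, 7.82, 6.49 and 6.65 CPM in MitoNegative, and 6.06, 6.85 and 5.86 CPM in MitoPositive. Both co-cultured groups lay above monoculture, by 1.49-fold in MitoNegative (log2 fold change 0.58, SE 0.128, adjusted p = 0.00379, edgeR) and 1.34-fold in MitoPositive (log2 fold change 0.42, SE 0.128, adjusted p = 0.0201). The second of these calls was lost without monoculture B (adjusted p = 0.072) or MitoPositive C (0.0857).

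Ndufaf3 and Ndufaf4 bind each other and the Q module while it is built. Ndufaf4 was at 16.3, 15.9 and 15.5 CPM in monoculture, 17.6, 17.4 and 16.7 CPM in MitoNegative, and 23.0, 18.1 and 19.2 CPM in MitoPositive. The 3 groups did not overlap, with MitoPositive B highest, and the value was 0.34 in MitoPositive (SE 0.0891, adjusted p = 0.00931, edgeR) and 0.12 in MitoNegative (adjusted p = 0.328). Ndufaf3 was at 14.7, 14.8 and 16.5 CPM in monoculture, 17.7, 16.9 and 16.2 CPM in MitoNegative, and 17.8, 19.8 and 16.8 CPM in MitoPositive. MitoPositive lay above monoculture, by a log2 fold change of 0.24 (SE 0.0847, adjusted p = 0.0365), while MitoNegative overlapped it, at 0.15 (adjusted p = 0.196). The Ndufaf3 call was lost without monoculture B (adjusted p = 0.109), monoculture C (0.106), MitoPositive B (0.0688) or MitoPositive C (0.163). Ndufaf3 overlaps the abundant gene Impdh2 on the opposite strand along 2.6% of its exon bases.

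Ndufaf2 attaches to the nearly finished enzyme before the N module joins. It was at 11.1, 9.99 and 10.7 CPM in monoculture, 12.2, 12.3 and 11.6 CPM in MitoNegative, and 13.6, 12.7 and 11.6 CPM in MitoPositive. Monoculture was lowest, and the log2 fold change was 0.26 in MitoPositive (SE 0.0884, adjusted p = 0.0332, edgeR) and 0.19 in MitoNegative (adjusted p = 0.12). The Ndufaf2 call was lost without monoculture C (adjusted p = 0.106), MitoPositive B (0.14) or MitoPositive C (0.0852), and in the fit of these 2 groups alone (0.0548). On 65.6% of its exon bases it overlaps B230220B15Rik on the opposite strand, which held 56 counts against 6926.

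The other 4 assembly factors did not pass in either comparison. Ndufaf1, part of the machinery that builds the proximal membrane arm, was at 25.7, 25.6 and 28.0 CPM in monoculture, 24.5, 25.0 and 22.5 CPM in MitoNegative, and 24.0, 24.5 and 22.6 CPM in MitoPositive, with log2 fold changes of -0.14 and -0.16 (adjusted p = 0.133 and 0.0826, edgeR). Both co-cultured groups lay below monoculture without overlap for Ndufaf1, but by less than the test required. Ndufaf5, an enzyme that hydroxylates Ndufs7, was at 10.2, 10.2 and 9.37 CPM in monoculture, 9.96, 10.4 and 10.3 CPM in MitoNegative, and 10.2, 10.4 and 11.0 CPM in MitoPositive. Ndufaf7, a methyltransferase that acts on the growing enzyme, was at 27.1, 27.6 and 31.5 CPM in monoculture, 28.3, 30.1 and 26.9 CPM in MitoNegative, and 31.3, 31.0 and 30.3 CPM in MitoPositive. Both enzymes overlapped monoculture in each co-cultured group, and the MitoPositive libraries lay above the MitoNegative ones for Ndufaf7. Without monoculture D the value of Ndufaf7 in MitoPositive passed (log2 fold change 0.18, adjusted p = 0.0388, against 0.10 and 0.269 with it). Ndufaf8, a partner of Ndufaf5, was at 10.9, 10.2 and 13 CPM in monoculture, 10.4, 9.95 and 9.54 CPM in MitoNegative, and 10.6, 11.5 and 9.57 CPM in MitoPositive, also with overlap.

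**Figure D4:**
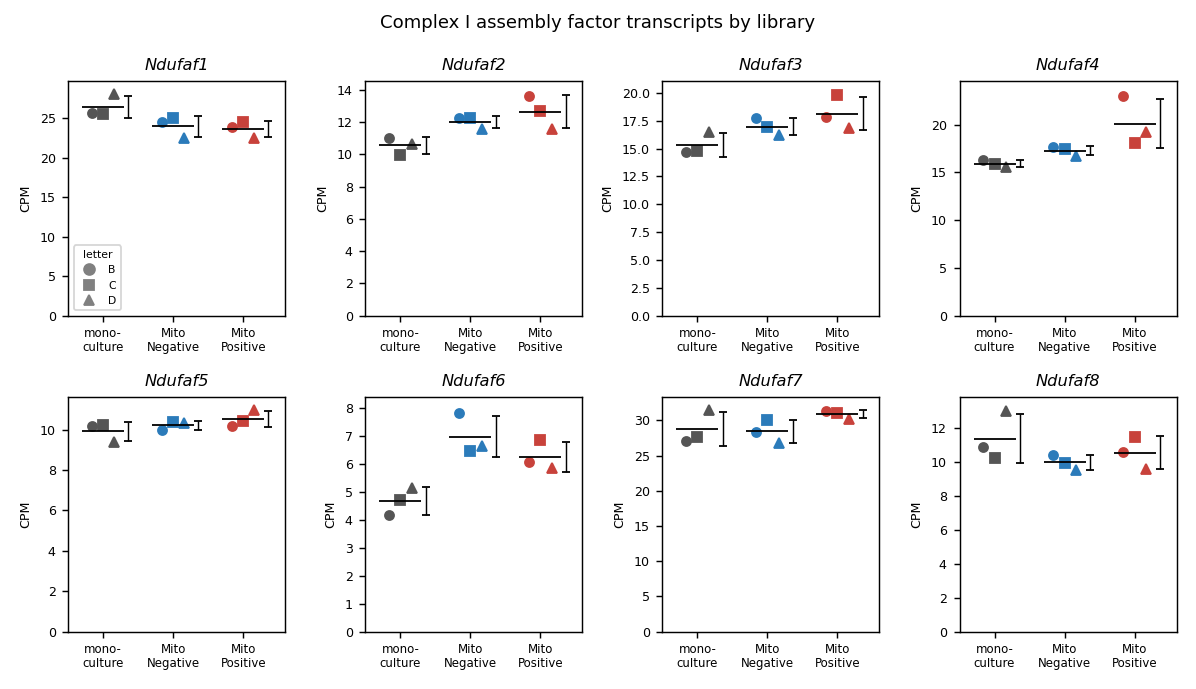
CPM in each library (symbols for letters B, C and D) of the 8 assembly factors in monoculture, MitoNegative and MitoPositive, with the group mean (line) and SD (bar). All MitoPositive libraries lie above all monoculture libraries for Ndufaf2, Ndufaf3, Ndufaf4 and Ndufaf6.

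The remaining 4 members were under the filter on low counts and were not tested. Ndufa4l2, a relative of Ndufa4 known as a target of hypoxia-inducible factor, had 0, 0 and 0 counts in monoculture, 1, 1 and 1 in MitoNegative and 1, 2 and 3 in MitoPositive. These are too few reads to compare. The pseudogenes in M21 were as low, with 0 to 4 counts per library for Ndufa11b, 1 to 5 for Ndufb4c and 1 to 7 for Ndufs6b. Ndufb4c matches Ndufb4 at 100% over 390 bases, and Ndufs6b matches Ndufs6 at 96.6% over 348 bases, so reads of these pairs could be split between the copies. With a minimum of 95% identity over 200 bases, 11 of the 49 members had such a copy, among them Ndufs5, Ndufs3, Ndufa12 and Ndufb11.

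Between MitoPositive and MitoNegative, the comparison of T cells with and without labelled stromal mitochondria, no member passed the test in the fit of all 9 libraries. edgeR called 0 of 45, beside 0.165% of all tested genes, and 4 members had an unadjusted p under 0.05, as had 10.5% of all genes. DESeq2, which called 3.22% of the genes it adjusted, the edgeR fit of 9 libraries with the replicate letter as a block, which called 2.34%, and limma voom each called 0 members. The median log2 fold change was 0.05, with 32 estimates above 0 and 13 below, against 0.00 over all genes. The members ranged from -0.19 (Ndufa6) to 0.22 (Ndufaf4), so estimated differences were at most 1.17-fold.

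The 5 members with the lowest p were Ndufa1, Ndufaf4, Ndufa6, Ndufs1 and Ndufv1, whose values in each library are given above. In all 5 the sorted groups did not overlap: MitoPositive was above MitoNegative in Ndufa1, Ndufaf4, Ndufs1 and Ndufv1 and below it in Ndufa6. Their edgeR log2 fold changes were 0.21 (SE 0.0707) for Ndufa1, 0.22 (SE 0.0887) for Ndufaf4, -0.19 (SE 0.0795) for Ndufa6, 0.11 (SE 0.0508) for Ndufs1 and 0.12 (SE 0.0624) for Ndufv1. The adjusted p-values were 0.289, 0.401, 0.419, 0.469 and 0.552 in the same order. Over all genes, 10.5% were higher and 9.55% lower in MitoPositive without overlap, and 5 and 1 of the 45 members were, Ndufaf7 being the fifth.

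The labels state no pairing, but same-letter residuals of the sorted groups correlated, by 0.339 to 0.459. A fit of the 6 sorted libraries alone with the letter as a block called many more genes. In that fit 18.2% of 15431 genes passed, 9.92% higher and 8.29% lower, and 7 members were higher and 1 lower. These were Ndufa1 (log2 fold change 0.21, SE 0.0393, adjusted p = 0.00165), Ndufaf4 (0.22, SE 0.0607, adjusted p = 0.0203), Ndufs1 (0.12, SE 0.032, adjusted p = 0.0187) and Ndufv1 (0.12, SE 0.0318, adjusted p = 0.0131) among the higher, and Ndufa6 (-0.19, SE 0.0392, adjusted p = 0.00438) as the lower one. The other 3 higher members, Ndufb3 (0.15, adjusted p = 0.00652), Ndufc2 (0.12, adjusted p = 0.0194) and Ndufa13 (0.11, adjusted p = 0.0463), were chosen after their values were seen. The share of members that passed this fit lay near that of all genes. Sizes were close to those of the 9-library fit and the SEs were smaller, though this fit had fewer residual degrees of freedom.

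**Figure D5:**
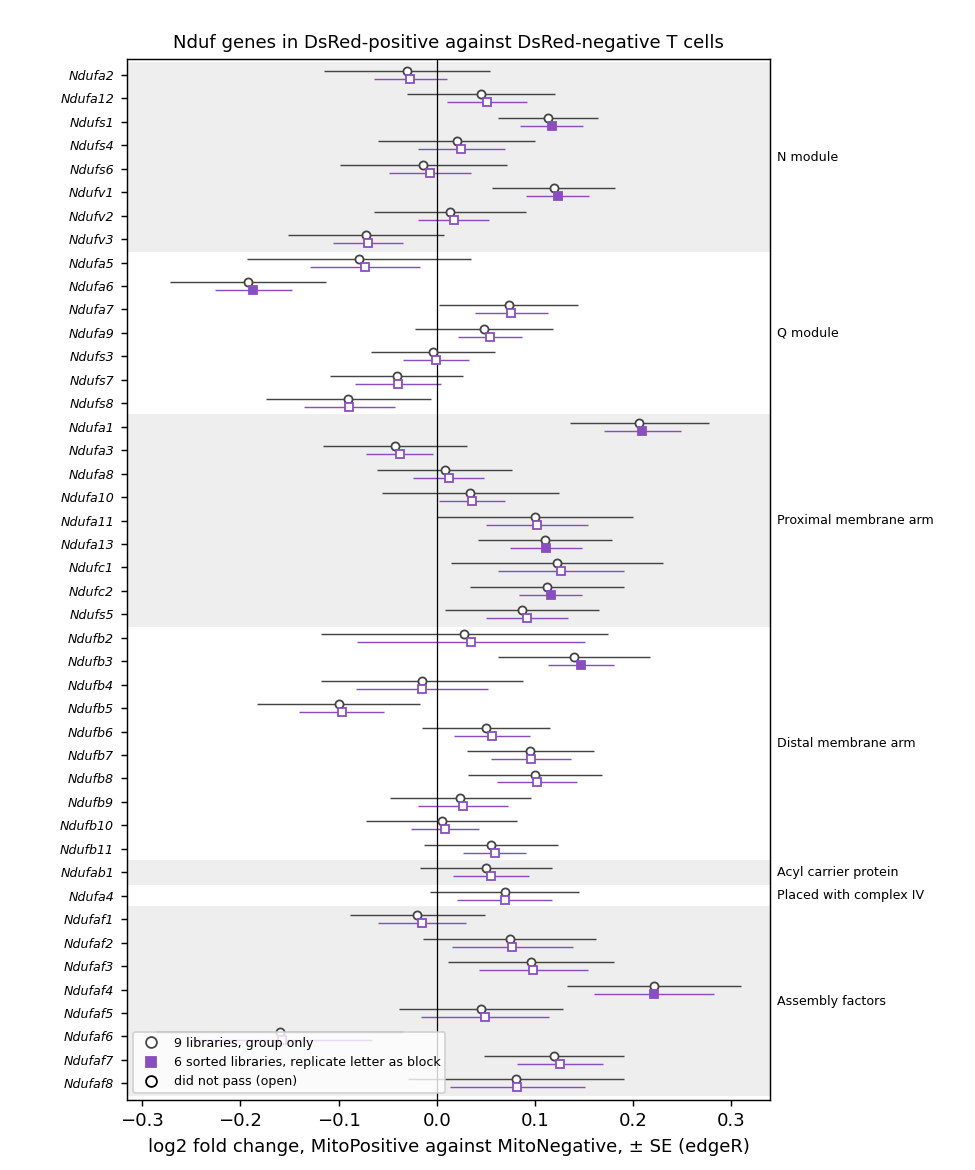
Log2 fold change of MitoPositive against MitoNegative with its SE (x axis) for 44 of the 45 tested members by module (y axis), from edgeR on 9 libraries (circles) and on the 6 sorted libraries with the replicate letter as a block (squares), filled where the test passed. All estimates of the 9-library fit lie between -0.19 and 0.22, and 8 members are filled in the 6-library fit.

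The membrane core of complex I is encoded by mitochondrial DNA, and these counts do not separate transcripts of T-cell mitochondria from those of stromal mitochondria. Between MitoPositive and MitoNegative none of the 7 mt-Nd genes passed (edgeR), with values from -0.20 (mt-Nd1, adjusted p = 0.62) to 0.05 (mt-Nd6, adjusted p = 0.936), and none had an unadjusted p under 0.05. Against monoculture they did not move as a group. In MitoNegative mt-Nd1, mt-Nd2 and mt-Nd6 were higher, and in MitoPositive mt-Nd6 was higher and mt-Nd4 lower. mt-Nd1 was at 1197, 1070 and 1169 CPM in monoculture, 1354, 1587 and 1709 CPM in MitoNegative, and 1236, 1220 and 1600 CPM in MitoPositive. MitoNegative and MitoPositive both lay above monoculture, by 0.44 (SE 0.118, adjusted p = 0.0118) and 0.24 (SE 0.118, adjusted p = 0.125), and the first was lost without MitoNegative D (adjusted p = 0.0503). mt-Nd4 was at 922.2, 773.1 and 851.5 CPM in monoculture, 637.1, 800.1 and 766.6 CPM in MitoNegative, and 644.4, 596 and 718.8 CPM in MitoPositive. MitoPositive lay below monoculture (log2 fold change -0.38, SE 0.104, adjusted p = 0.0116), which was lost without MitoPositive C (adjusted p = 0.056), and MitoNegative overlapped it (-0.21, adjusted p = 0.135).

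mt-Nd6, the mt-Nd gene on the opposite strand of mitochondrial DNA, was at 31.5, 34.2 and 31.3 CPM in monoculture, 35.9, 43.4 and 39.9 CPM in MitoNegative, and 46.9, 34.5 and 41.6 CPM in MitoPositive. Both co-cultured groups lay above monoculture, by 0.30 (SE 0.105, adjusted p = 0.0421, edgeR) and 0.34 (SE 0.105, adjusted p = 0.0207). The first of these did not pass with the replicate block (adjusted p = 0.0551), limma voom (0.0538) or total counts as the scale (0.0529). The first was also lost without any of monoculture B, C or D, MitoNegative C or D, or MitoPositive D (adjusted p from 0.0563 to 0.147), and the second without monoculture B or D, or MitoPositive B or D (0.0544 to 0.0884). mt-Nd2 was at 978.5, 831.8 and 889.3 CPM in monoculture, 985.6, 1150 and 1194 CPM in MitoNegative, and 967.3, 916 and 1162 CPM in MitoPositive. MitoNegative lay above monoculture and MitoPositive overlapped it. mt-Nd2 was 0.30 higher in MitoNegative (SE 0.107, adjusted p = 0.0419), which was lost without monoculture C or D, MitoNegative C or D, or MitoPositive B (adjusted p from 0.0518 to 0.141), and in the fit of these 2 groups with the replicate block (0.0688), and in MitoPositive the value was 0.17 (adjusted p = 0.216). mt-Nd5 overlapped between all groups, at 1836 to 2132 CPM in monoculture, 1676 to 1976 in MitoNegative and 1656 to 1900 in MitoPositive. mt-Nd3 and mt-Nd4l had about 1 CPM in each library and have nuclear copies with 99.7% and 100% identity that held more counts than they did, so their values are uncertain.

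The ratio of the sum of mt-Nd1, mt-Nd2, mt-Nd4, mt-Nd5 and mt-Nd6 to the sum of the nuclear members was 2.28, 1.98 and 1.8 in monoculture, 2.05, 2.46 and 2.62 in MitoNegative, and 2.1, 1.87 and 2.46 in MitoPositive. The 3 groups overlapped, and the ratio was given no test.

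Complex I assembly factors with names outside the Nduf series were split. Of the 13 tested, 1 rose and 5 fell in MitoNegative (46.2%) and 2 rose and 3 fell in MitoPositive (38.5%). These shares lay near those of all genes, 38.9% and 42.2%. None of the 13 passed between the sorted groups. Without monoculture D, 1 rose and 4 fell in MitoNegative (background 20.9% and 16.6%) and 1 rose and 2 fell in MitoPositive (23% and 18.7%). In MitoPositive 1 rose also without monoculture C (background 19.6%), MitoPositive B (19.2%) or MitoPositive C (18.4%). Nubpl, which supplies iron-sulfur clusters to complex I, was at 6.28, 7.45 and 6.84 CPM in monoculture, 10.6, 9.67 and 9.22 CPM in MitoNegative, and 10.8, 8.94 and 9.82 CPM in MitoPositive. It rose 1.43-fold in MitoNegative and 1.44-fold in MitoPositive (log2 fold changes 0.52 and 0.53, SE 0.109 for each, adjusted p = 0.00291 and 0.0023, edgeR). Tmem186 and Tmem126b work with Ndufaf1 in the machinery for the proximal membrane arm. Tmem186 was at 32.2, 32.4 and 33.4 CPM in monoculture, 21.3, 22.0 and 22.0 CPM in MitoNegative, and 21.2, 21.5 and 21.6 CPM in MitoPositive, a fall of 1.5-fold and 1.52-fold (adjusted p = 1.26e-05 and 6.66e-06). Tmem126b fell 1.45-fold and 1.46-fold (adjusted p = 0.000182 and 0.000134). For all 3 genes the co-cultured and monoculture libraries did not overlap.

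Of 44 tested nuclear genes of complexes II to V, 5 rose and 12 fell in MitoNegative (38.6%), and 5 rose and 8 fell in MitoPositive (29.5%). Of all tested genes 20.6% rose and 18.3% fell in MitoNegative (38.9%), and 22.3% rose and 19.9% fell in MitoPositive (42.2%). The share of these 44 genes was thus near that of all genes in MitoNegative and below it in MitoPositive. Between the sorted groups 0 passed (0.165% of all genes), and 2 had an unadjusted p under 0.05 (10.5% of all genes). Their median log2 fold change was -0.08 in MitoNegative, -0.03 in MitoPositive and 0.06 between the sorted groups, beside -0.11, -0.06 and 0.05 for the Nduf members. Without monoculture D the split of these calls turned, to 13 higher and 5 lower in MitoNegative (background 20.9% and 16.6%). In MitoPositive it turned to 14 higher and 4 lower (background 23% and 18.7%). The medians were then 0.00 and 0.06. Other libraries moved the counts too: 3 rose in MitoNegative without monoculture B, monoculture C or MitoNegative C, 7 fell there without MitoNegative B and 5 without MitoNegative D, and 4 fell in MitoPositive without MitoPositive D. Scaling by total counts gave 10 rises in MitoPositive, beside 24.5% of all genes. In MitoNegative 17.3% of all genes rose without monoculture B and 17.2% without MitoNegative C. Over all genes in either direction, 5422 passed there without monoculture C, 5078 without MitoNegative B and 5377 without MitoNegative D, against 6110. In MitoPositive 5950 passed without MitoPositive D, against 6637. Sdhaf1, an assembly factor of complex II, rose 1.65-fold in MitoNegative and 1.62-fold in MitoPositive (adjusted p = 5.78e-05 and 5.73e-05, edgeR), and Atp5a1, a catalytic-head subunit of the ATP synthase, fell 1.33-fold and 1.26-fold (adjusted p = 0.00226 and 0.00727). Of the 9 tested regulators of respiratory chain genes, 3 rose and 2 fell in MitoNegative (55.6%) and 3 rose and 4 fell in MitoPositive (77.8%). The shares of all genes were 38.9% and 42.2%. Myc, Gabpb1 and Pprc1 rose in both. Nrf1, Gabpa and Yy1 were chosen after their values were seen because they encode factors of the motifs above. Nrf1 fell in both (log2 fold changes -0.28 and -0.39, adjusted p = 0.0055 and 0.000511), as did Gabpa (-0.17 and -0.22, adjusted p = 0.0231 and 0.00503). Yy1 was at 238.1, 239.6 and 230.1 CPM in monoculture, 220.4, 219.3 and 197.5 CPM in MitoNegative, and 200.6, 198.6 and 189.4 CPM in MitoPositive, and passed in MitoPositive (-0.27, adjusted p = 0.00364) but not in MitoNegative (-0.15, adjusted p = 0.0636). Yy1 passed in MitoNegative with DESeq2 (adjusted p = 0.0381) and with the replicate block (0.0329). The Gabpa call in MitoNegative was lost without monoculture B (adjusted p = 0.0715), monoculture C (0.0569), MitoNegative B (0.0556), MitoNegative C (0.0696) or MitoNegative D (0.0838), with total counts (0.0565), without the filter (0.0683), and in fits of the 2 groups alone with and without the block (0.0889 and 0.0624). Myc did not pass between the sorted groups without the block and was higher in MitoPositive with it (log2 fold change 0.28, adjusted p = 0.0236). Of 12 tested genes for other routes of electrons to ubiquinone or NADH shuttling, 4 rose and 2 fell in MitoNegative (50%). In MitoPositive 5 rose and 2 fell (58.3%), again beside 38.9% and 42.2% of all genes. Gpd2, which feeds electrons from cytosolic NADH to ubiquinone without complex I, rose 1.66-fold in MitoNegative and 1.99-fold in MitoPositive (adjusted p = 0.000756 and 7.83e-05).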

How the data were processed

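RNA from 9 libraries (3 per group) was extracted, depleted of ribosomal RNA and sequenced, per the labels' protocols. Behind the deposited raw counts per gene, the submitters' processing notes list STAR 2.7 and featureCounts, with cutadapt, bcl2fastq and DESeq2, on GRCm38. The strandedness of counting is not given in the sources used here. The deposited table held 55520 entries, of which 99 were spike-in controls with 0 counts. Exon lengths came from the deposited annotation, and 54587 of its identifiers were found in GENCODE M21 with the same coordinates.

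The tests ran in edgeR 4.0.16 under R 4.3.3, with filterByExpr (minimum count 10, minimum total 15), TMM scaling, and a robust quasi-likelihood fit by group over the 9 libraries with 6 residual degrees of freedom. Adjusted p-values are Benjamini-Hochberg values over 15711 genes with a threshold of 0.05, and all p-values without another named tool are from this test. The SE is the absolute log2 fold change divided by the square root of the F statistic. CPM and RPKM use the TMM-scaled library size, and spreads are SDs. Replicates of a group differed by more than counting noise (chi-square per degree of freedom 17.4 to 59.7), and no pair was merged. Same-letter residuals correlated by 0.402, 0.339 and 0.459 between the sorted groups, 0.213, 0.153 and 0.111 between MitoNegative and monoculture, and 0.248, 0.0521 and 0.163 between MitoPositive and monoculture. With a threshold of 0.1 the letters were taken to pair the samples in the first 2 comparisons. Because the labels state no pairing, the main test left the letter out and the block was run as an alternative. The block left 4 residual degrees of freedom in the fit of 9 libraries, and fewer in the fit of the 6 sorted libraries alone.

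Members, gene lists and markers were chosen with earlier results of these data known. Named were up to 10 rises and 10 falls per comparison with monoculture among members that passed, the 5 lowest p between the sorted groups, Ndufs1, Ndufv1, Ndufab1, Ndufa4, Ndufa4l2, the 8 assembly factors, the members under the filter and the mt-Nd genes, and up to 3 passing genes of each other list. A member that the rule names is not reported here by name, though it is in the counts and medians. Of the other lists only some of these are printed. The fits were tested on simulated counts. Alternatives were DESeq2 size factors, total counts, no filter, DESeq2 1.42.0, limma 3.58.1 (voom), the replicate block, only the groups compared, and leaving out each library. Near-identical copies were found by blastn of GENCODE M21 transcripts.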

Additional observations from a re-analysis of the deposited data

How the results depend on the processing

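The 17 alternative settings kept the calls of Ndufa4, Ndufa3, Ndufb7 and Ndufb10 in both comparisons with monoculture, of Ndufaf6 and Ndufa1 in MitoNegative, and of Ndufab1, Ndufaf4 and Ndufs7 in MitoPositive. Between MitoPositive and MitoNegative the number of genes called among all tested was 26, but 15 with DESeq2 size factors, 14 with total counts, 171 without the filter, 418 with DESeq2, 33 with limma voom, 65 with only the 2 groups, 367 with the replicate block over 9 libraries, 2810 with the replicate block and only the 2 groups, and 1 to 120 on leaving out 1 library. Of these calls 53.8% were higher in MitoPositive, 66.7% with DESeq2 size factors, 71.4% with total counts, 75.8% with limma voom, and 0% to 70% on leaving out 1 library, where 3 fits made a single call. With only the 2 groups and the replicate block, 7 members were higher and 1 lower, against 0 and 0. On leaving out 1 library, members higher ranged from 1 to 5 and lower from 7 to 11 in MitoNegative against monoculture, and higher from 2 to 10 in MitoPositive against monoculture, where total counts gave 8. Estimates near 0 changed sign: Ndufaf7 in MitoNegative was 0.004 with total counts and -0.058 to 0.066 on leaving out 1 library. Ndufv1 in MitoPositive was 0.03 with total counts, 0.015 without the filter, 0.01 with only the 2 groups and the replicate block, 0.008 with only the 2 groups, and -0.046 to 0.074 on leaving out 1 library. Ndufaf8 in MitoPositive was -0.182 to 0.008 on leaving out 1 library. The cause was not tested. The block over 9 libraries changed no call of an Nduf member. Among the other genes given above with a fold change, it ended the call of mt-Nd6 in MitoNegative. It gave those of Yy1 in MitoNegative and of Myc between the sorted groups, as stated. Counts of other lists moved too, such as complex V genes lower in MitoPositive than in monoculture, from 5 to 7. Counting depth kept 4 members, with at most 7 counts in a library, out of the tests. Median RPKM with the longest coding transcript as length was 52.9, 48.5 and 49 in monoculture, MitoNegative and MitoPositive, against 24.1, 24.2 and 25.4.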

Other observations

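AA467197, whose protein is known to take the place of Ndufa4 in complex IV, was looked up after the values of Ndufa4 had been seen. It was at 9.77, 10.7 and 13.1 CPM in monoculture, 70.1, 83.0 and 68 CPM in MitoNegative, and 113.8, 122.6 and 80.7 CPM in MitoPositive. Both co-cultured groups lay far above monoculture, by 6.59-fold in MitoNegative (log2 fold change 2.72, SE 0.178, adjusted p = 8.68e-06, edgeR) and 9.45-fold in MitoPositive (log2 fold change 3.24, SE 0.181, adjusted p = 2.3e-06). Under the 17 alternative settings the log2 fold change stayed between 2.63 and 2.86 in MitoNegative and between 3.12 and 3.4 in MitoPositive. The sorted groups overlapped, with 0.52 (SE 0.163, adjusted p = 0.273) in MitoPositive against MitoNegative. Ndufa4 was lower in the same 6 libraries, at 31.8 to 37.8 CPM against 57.9 to 68.1 CPM in monoculture, and whether the 2 changes are linked was not tested.

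Ndufb1-ps, left out by the naming rule, was at 36.2 to 44.2 CPM in monoculture, 37.0 to 42.4 CPM in MitoNegative and 37.8 to 42.4 CPM in MitoPositive, and the annotation held no gene named Ndufb1. The groups overlapped.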
